A study of Mus musculus with 8 samples.

Results

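Imprinted growth-control genes were followed in fibroblasts sorted from mouse colon by the surface protein CD90. An imprinted gene is expressed mainly or only from the copy inherited from 1 parent, a state kept by DNA methylation at a control region. Many such genes set the growth of the fetus and placenta: as a rule, paternally expressed ones favour growth and maternally expressed ones restrain it, and many are turned down in tissues after birth. The array reads both parental copies together, so it shows the level of a gene and not its imprint. The set named 10 genes: H19, Meg3, Rian, Dlk1, Peg3, Mest, Plagl1, Cdkn1c, Grb10 and Ndn. A gene was taken as measured where the platform's annotation gives a transcript cluster, the array's unit of measurement, to that gene alone. This held for 7 of the 10, out of 30793 genes with such a cluster, and 6 of the 7 passed the filter on dim clusters and were tested among 17255 genes. The clusters that list H19, Meg3 and Rian also list small RNA genes, and are described separately as joint clusters that belong to no single gene.

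All cells came from the colon of wild-type C57BL/6J mice and shared a gate: they lacked Epcam, CD45 and CD31 and carried gp38 (podoplanin). They were then split into a CD90- and a CD90+ population, with no treatment named. Each population has 4 samples on 1 array each, numbered 13, 15, 17 and 19 for CD90- and 14, 16, 18 and 20 for CD90+. The cells came from 4 mice, whose age and sex are not in the labels. No label ties a sample to a mouse, and the p-values rest on the spread among these arrays. Values are log2 expression as deposited, means are given ± SD with n = 4, and each difference is CD90+ minus CD90-. The scale reached 19.9 and is not raw brightness, so folds hold on this scale alone.

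The sort gene Thy1, which codes for CD90, was between 5.46 and 5.57 in CD90- samples and between 7.03, in sample 14, and 8.11 in CD90+ samples. Pdpn, the gp38 gene, lay between 13.0 and 13.54 in all 8, and fibroblast genes were bright in both populations. Of 7 tested fibroblast genes 3 were called higher and 1 lower, where 14.0% of all tested genes were called higher and 15.7% lower. Dcn (decorin) was at 17.95 ± 0.26 and 18.7 ± 0.074 and Col3a1, a collagen gene, at 15.81 ± 0.26 and 15.88 ± 0.15. The collagen gene Col1a2, named after its values were seen, was at 15.37 ± 0.084 and 14.65 ± 0.076. Samples 13 and 14 stood apart from the other 6: Xist, the RNA of X inactivation, was at 16.16 and 16.27 there and at 9.32 or lower elsewhere. The Y-linked Uty was at 5.49 and 5.56 there and at 9.65 or higher elsewhere. This is the pattern of female cells in samples 13 and 14 and of male cells in the other 6. Among those 6, Xist was not even, and ran from 5.89 in sample 16 to 9.32 in sample 17. Whatever else sets samples 13 and 14 apart cannot be told apart from sex. The median of the negative control rows was between 6.79 and 6.84 on CD90- arrays and between 6.58 and 6.67 on CD90+ arrays, and the size of a difference with values below it is not exact. In bulk samples, fewer cells of a type and less RNA per cell cannot be told apart.

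Mest, Ndn, Plagl1, Grb10 and Cdkn1c rose in CD90+ fibroblasts and no tested member fell. These are 5 of 6 tested members, where 29.6% of all tested genes were called, 14.0% higher and 15.7% lower (limma, adjusted p under 0.05). Mest alone rose at least 2-fold, where 3.78% of tested genes were called that much higher and 3.41% that much lower. The median difference of the 6 was 0.49, against -0.014 over all tested genes. The populations did not overlap for 4 of them (Mest, Ndn, Grb10 and Cdkn1c), as for 14.9% of all tested genes in this direction and 32.3% in either. Mest, Ndn and Grb10 kept their calls in all alternatives in which they were tested. Plagl1 and Cdkn1c, with limma adjusted p of 0.0477 and 0.0438, lost theirs in several.

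**Figure D1:**
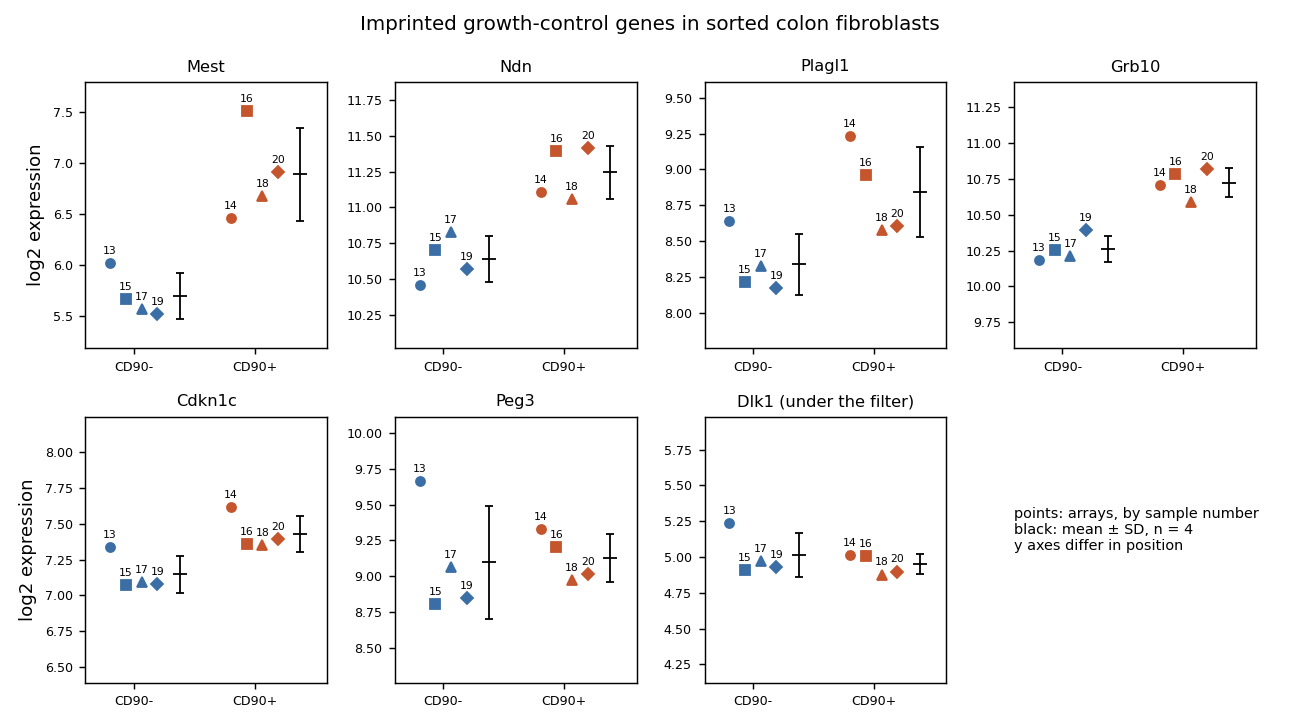
Log2 expression (y axis) of the 7 measured genes in each CD90- (blue) and CD90+ (orange) sample, with sample numbers and mean ± SD (n = 4) in black; y axes differ in position. Mest, Ndn, Grb10 and Cdkn1c did not overlap between the populations, while Peg3 and Dlk1 did, and Plagl1 overlapped through sample 13.

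Mest, Ndn, Plagl1, Peg3 and Dlk1 are expressed from the paternal copy. Mest codes for a protein of the alpha/beta hydrolase fold and is abundant in embryonic mesoderm. It was at 6.02, 5.66, 5.57 and 5.52 in CD90- samples 13, 15, 17 and 19, and at 6.46, 7.5, 6.67 and 6.91 in CD90+ samples 14, 16, 18 and 20. Every CD90+ sample was thus above every CD90- sample, with sample 16 highest and sample 14 lowest among the CD90+ ones. Its difference was 1.19 (95% interval 0.7 to 1.69, adjusted p = 0.00344 in limma), a 2.28-fold rise, and an exact permutation test gave p = 0.0286, the smallest that 4 against 4 samples allow. Exact p-values here are two-sided and unadjusted for the 7 members tested. All 4 CD90- values of Mest lay below the negative control rows, as did that of sample 14.

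Ndn codes for necdin, a MAGE-family protein that restrains proliferation and promotes differentiation, best known from neurons. It was at 10.46, 10.7, 10.83 and 10.57 in CD90- samples 13, 15, 17 and 19, and at 11.11, 11.39, 11.06 and 11.42 in CD90+ samples 14, 16, 18 and 20. The highest CD90- sample, 17, stayed below the lowest CD90+ sample, 18. Ndn rose by 0.6 (95% interval 0.35 to 0.86, adjusted p = 0.00407 in limma, two-sided exact permutation p = 0.0286), a 1.52-fold rise.

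Plagl1 codes for the zinc finger transcription factor ZAC1, a regulator of other imprinted genes that slows the cell cycle. It was at 8.64, 8.21, 8.33 and 8.17 in CD90- samples 13, 15, 17 and 19, and at 9.23, 8.96, 8.58 and 8.61 in CD90+ samples 14, 16, 18 and 20. Sample 13 lay above samples 18 and 20, so the populations overlapped. The difference of 0.51 (95% interval 0.13 to 0.88) passed in limma (adjusted p = 0.0477), and the two-sided exact permutation test gave p = 0.0857. The call was lost without sample 14, 15, 16, 17 or 19, with limma adjusted p from 0.0841 to 0.122.

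Peg3, a zinc finger protein gene, was at 9.67, 8.81, 9.07 and 8.85 in CD90- samples 13, 15, 17 and 19, and at 9.33, 9.2, 8.97 and 9.01 in CD90+ samples 14, 16, 18 and 20. Its highest value was in CD90- sample 13, and the populations overlapped. The difference was 0.033 (95% interval -0.39 to 0.46, adjusted p = 0.918 in limma, two-sided exact permutation p = 0.914). This interval holds a difference of the size seen in Cdkn1c. Without sample 13 the difference was 0.22, and without samples 14, 15 and 19 in turn it was below 0.

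Dlk1 codes for a transmembrane EGF-repeat protein related to Notch ligands and is a mark of fetal mesenchyme and preadipocytes. Its cluster lay between 4.91 and 5.24 in CD90- samples and between 4.88 and 5.01 in CD90+ samples, below the negative control rows on every array and under the filter, and the populations overlapped (exact permutation p = 0.629). These values do not show whether the transcript was present.

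**Figure D2:**
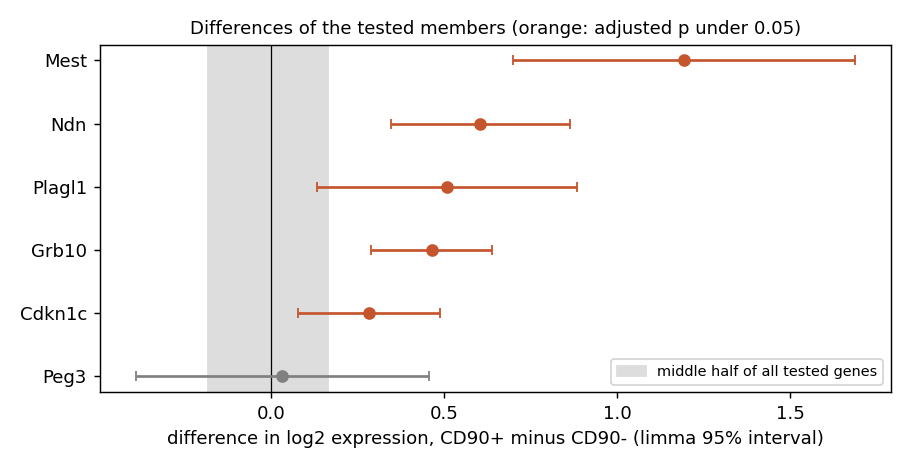
Difference in log2 expression (x axis, CD90+ minus CD90-) of the 6 tested members with limma's 95% interval, orange where the adjusted p was under 0.05; the grey band runs between the quartiles of all tested genes, -0.18 and 0.17. The intervals of Mest, Ndn, Plagl1, Grb10 and Cdkn1c lie above 0 and that of Peg3 spans it.

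Among the maternally expressed members, Grb10 codes for an adaptor that binds the insulin and IGF1 receptors and damps their signal. It is expressed from the maternal copy in most tissues and from the paternal copy in neurons. It was at 10.18, 10.25, 10.21 and 10.39 in CD90- samples 13, 15, 17 and 19, and at 10.71, 10.78, 10.59 and 10.82 in CD90+ samples 14, 16, 18 and 20. Every CD90+ sample was above every CD90- sample, and the difference was larger than the SD of either population. The difference was 0.46 (95% interval 0.29 to 0.64, adjusted p = 0.00200 in limma, two-sided exact permutation p = 0.0286), a 1.38-fold rise.

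Cdkn1c codes for p57KIP2, an inhibitor of cyclin-dependent kinases that holds cells out of the cycle. It was at 7.34, 7.08, 7.09 and 7.08 in CD90- samples 13, 15, 17 and 19, and at 7.62, 7.36, 7.35 and 7.4 in CD90+ samples 14, 16, 18 and 20. The lowest CD90+ sample, 18, was only just above CD90- sample 13. The difference was 0.28 (95% interval 0.078 to 0.49, adjusted p = 0.0438 in limma, two-sided exact permutation p = 0.0286), a 1.22-fold rise. It lost its call when any sample other than 13 was left out, with limma adjusted p from 0.0614 to 0.113.

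Samples 13 and 14 were each the highest of their population for Peg3, Plagl1, Cdkn1c and Dlk1; this held for 3 of the 6 tested members and for 11.1% of all tested genes. For Peg3, sample 13 was 0.76 above the mean of the other CD90- samples, and sample 14 was 0.27 above that of the other CD90+ ones. The same gaps were 0.4 and 0.52 for Plagl1 and 0.26 and 0.25 for Cdkn1c. Ndn went the other way, at -0.24 and -0.18, and Grb10 at -0.1 and -0.021. Over the 8 arrays, with each population centred on its mean, Peg3, Plagl1 and Cdkn1c correlated with each other at Pearson r of 0.83 to 0.85. The other pairs of tested members ran from -0.54 (Cdkn1c with Ndn) to 0.46 (Grb10 with Ndn). These values describe arrays that include samples 13 and 14. The mean level of the smooth muscle list was 9.99 in sample 13 and 10.49 in sample 14, against 9.2 to 9.55 in the other 6. Interstitial cell of Cajal genes were also highest there, at 10.97 in sample 13 against 8.28 to 8.78 in the other CD90- samples, and at 7.69 in sample 14 against 6.59 to 6.98 in the other CD90+ ones. Epithelial genes were at 9.67 in sample 13 against 7.53 to 8.31, but sample 14, at 7.99, was the lowest CD90+ sample. The enteric glia list was lowest among CD90+ samples in sample 14, where Peg3, Plagl1 and Cdkn1c were highest. The part of these lists in the members' values was not tested. With samples 13 and 14 as a block, the limma adjusted p was 0.00464 for Plagl1 and 0.00312 for Cdkn1c. With samples 13 and 14 left out, 5 members were called higher, with Plagl1 at 0.48 and Cdkn1c at 0.29 (limma adjusted p = 0.0192 and 0.0102).

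By the same centred measure over 8 arrays, the tested genes most like Peg3 were Mir690 (r = 0.994) and Smpdl3a (0.991). For Mest they were Mir6979 (r = 0.987) and Gm5782 (0.986), and for Plagl1 Tcf24 (r = 0.989) and Cpsf6 (0.986). For Cdkn1c they were Efhb (r = 0.995) and Unc5a (0.994), for Grb10 Gnaq (r = 0.978) and Scarna2 (0.966), and for Ndn Impa1 (r = 0.986) and Nit1 (0.959). No member was among these nearest genes of another member. Each was picked for the highest r among 17255 tested genes over 8 arrays, where values this high can arise without any relation. Nothing is read from them.

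Upstream sequence is shown for the called members that have an entry in RefSeq's promoter table (GRCm38.p6), which are Mest, Plagl1, Grb10 and Ndn. It lets the letters of an imprint factor's motif be seen beside genes that were each called higher. Each line is the 250 bases before an annotated start, 5′ to 3′ on the gene's strand. Capitals mark the letters TGCCGC on either strand, the hexamer that ZFP57 binds when methylated. ZFP57 is a zinc finger protein that keeps methylation at imprint control regions. Of the alternative starts of Mest and Grb10, one with the most CpG dinucleotides is shown.
Mest, chr6:30737800-30738049, plus strand: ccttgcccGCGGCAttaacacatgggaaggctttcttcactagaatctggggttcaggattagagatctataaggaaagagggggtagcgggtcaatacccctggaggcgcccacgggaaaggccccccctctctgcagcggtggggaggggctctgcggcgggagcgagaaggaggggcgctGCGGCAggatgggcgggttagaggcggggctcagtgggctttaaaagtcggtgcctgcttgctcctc
Plagl1, chr10:13090582-13090831, plus strand: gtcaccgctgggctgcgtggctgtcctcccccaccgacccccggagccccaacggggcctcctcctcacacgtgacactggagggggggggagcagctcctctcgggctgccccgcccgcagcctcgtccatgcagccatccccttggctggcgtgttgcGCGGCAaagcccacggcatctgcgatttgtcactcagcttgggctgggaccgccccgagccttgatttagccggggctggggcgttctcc
Grb10, chr11:12037421-12037670, minus strand: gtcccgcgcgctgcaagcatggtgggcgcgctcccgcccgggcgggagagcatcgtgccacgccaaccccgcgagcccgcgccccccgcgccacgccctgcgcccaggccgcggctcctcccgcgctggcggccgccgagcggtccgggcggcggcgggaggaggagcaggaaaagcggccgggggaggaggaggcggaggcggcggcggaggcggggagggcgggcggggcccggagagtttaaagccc
Ndn, chr7:62348027-62348276, plus strand: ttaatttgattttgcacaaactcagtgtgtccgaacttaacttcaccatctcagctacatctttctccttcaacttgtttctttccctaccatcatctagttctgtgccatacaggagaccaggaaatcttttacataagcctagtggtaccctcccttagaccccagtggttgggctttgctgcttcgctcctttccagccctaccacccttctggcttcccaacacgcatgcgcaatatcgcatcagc

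The Mest window held 2 matches to TGCCGC and the Plagl1 window 1, while the Grb10, Ndn and Peg3 windows held 0, where 8.68% of 32851 windows of this length held at least 1. The Mest window was picked for its CpG count, which the hexamer adds to, while that share is over windows that were not picked; the window of the Mest start farther upstream held 0. CpG dinucleotides numbered 14 in the Mest window, 19 in that of Plagl1, 40 in that of Grb10 and 5 in that of Ndn, against a median of 6. The Grb10 window also held 5 matches to the GC box GGGCGG on either strand, which 32.7% of windows held at least once. A match describes the letters only and is no site.

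Joint clusters were described without a test, since no value can be given to 1 of their genes. Meg3 and Rian are long noncoding RNAs expressed from the maternal copy next to Dlk1, and Rian hosts small nucleolar RNAs. The cluster that lists Meg3 with Mir770, Mir1906-1 and Mir1906-2 was at 8.27, 8.84, 9.05 and 9.05 in CD90- samples 13, 15, 17 and 19, and at 9.7, 11.53, 11.09 and 11.29 in CD90+ samples 14, 16, 18 and 20. The cluster that lists Rian with 5 small RNA entries was at 8.31, 9.1, 9.35 and 9.19 in CD90- samples 13, 15, 17 and 19, and at 9.71, 11.58, 10.92 and 11.2 in CD90+ samples 14, 16, 18 and 20. In both clusters every CD90+ sample was above every CD90- sample, sample 13 was the lowest CD90- sample and sample 14 the lowest CD90+ sample. The mean differences were 2.1 and 1.87. H19 is a maternally expressed noncoding RNA that carries Mir675. The cluster listing both lay between 4.59 and 4.89 in CD90- samples and between 4.64 and 4.89 in CD90+ samples, below the negative control rows throughout.

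The same region holds many miRNA genes, several of which have clusters of their own. Such a cluster does not tell a primary transcript from the mature miRNA. Of 19 listed miRNA genes at the H19, Mest and Meg3-Rian loci, 14 had a cluster naming 1 gene and 8 passed the filter. Of these 8, 7 were called higher and 0 lower, with a median difference of 1.88. Over all tested genes 14.0% were called higher and 15.7% lower. The 7 called genes lie in the region of Meg3 and Rian on chromosome 12, and whether they read 1 transcript was not tested. The remaining tested gene was Mir335, in the Mest locus, at 5.49 ± 0.59 and 5.54 ± 0.22 (limma adjusted p = 0.899; named after its values were seen). Mature sequences are shown for the 5 miRNA genes named by rule, to let their seeds be compared. They come from RefSeq (GRCm38.p6), run 5′ to 3′, and have the seed, bases 2 to 8, in capitals.
mmu-miR-673-5p: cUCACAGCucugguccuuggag
mmu-miR-673-3p: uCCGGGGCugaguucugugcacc
mmu-miR-493-5p: uUGUACAUgguaggcuuuc
mmu-miR-493-3p: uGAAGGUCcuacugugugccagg
mmu-miR-337-5p: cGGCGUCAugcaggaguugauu
mmu-miR-337-3p: uCAGCUCCuauaugaugccuuu
mmu-miR-540-5p: cAAGGGUCacccucugacucugu
mmu-miR-540-3p: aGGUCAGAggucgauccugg
mmu-miR-665-5p: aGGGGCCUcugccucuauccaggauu
mmu-miR-665-3p: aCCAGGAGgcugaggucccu
No seed is shared among these 10.

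Mir493 was at 9.15, 9.03, 9.51 and 8.9 in CD90- samples 13, 15, 17 and 19, and at 11.18, 12.86, 12.37 and 12.3 in CD90+ samples 14, 16, 18 and 20. The populations stood well apart, with sample 14 the lowest CD90+ sample. The difference was 3.03 (limma adjusted p = 0.000159). Mir665 was at 7.22, 6.81, 7.15 and 7.57 in CD90- samples 13, 15, 17 and 19, and at 8.5, 10.82, 10.34 and 10.81 in CD90+ samples 14, 16, 18 and 20, a difference of 2.93 (limma adjusted p = 0.00193). Mir673 rose by 2.09, Mir540 by 1.67 and Mir337 by 1.59 (limma adjusted p = 0.00473, 0.00197 and 0.00347). Mir540 lay below the negative control rows in all CD90- samples and in sample 14, and Mir337 in CD90- samples 13, 17 and 19. The other called genes of the region were Mir136, at a difference of 1.63, and Mir341, at 2.35, both named after their values were seen. Mir136 was below the negative control rows in all CD90- samples and in sample 14. Mir341 overlapped between the populations, through sample 14 at 7.28. Sample 14 also held the lowest CD90+ level of the enteric glia list, 7.54. The part of glia or of other cells in the values of the miRNA genes was not tested. With single samples left out, 6 to 7 of the miRNA genes were called higher.

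**Figure D3:**
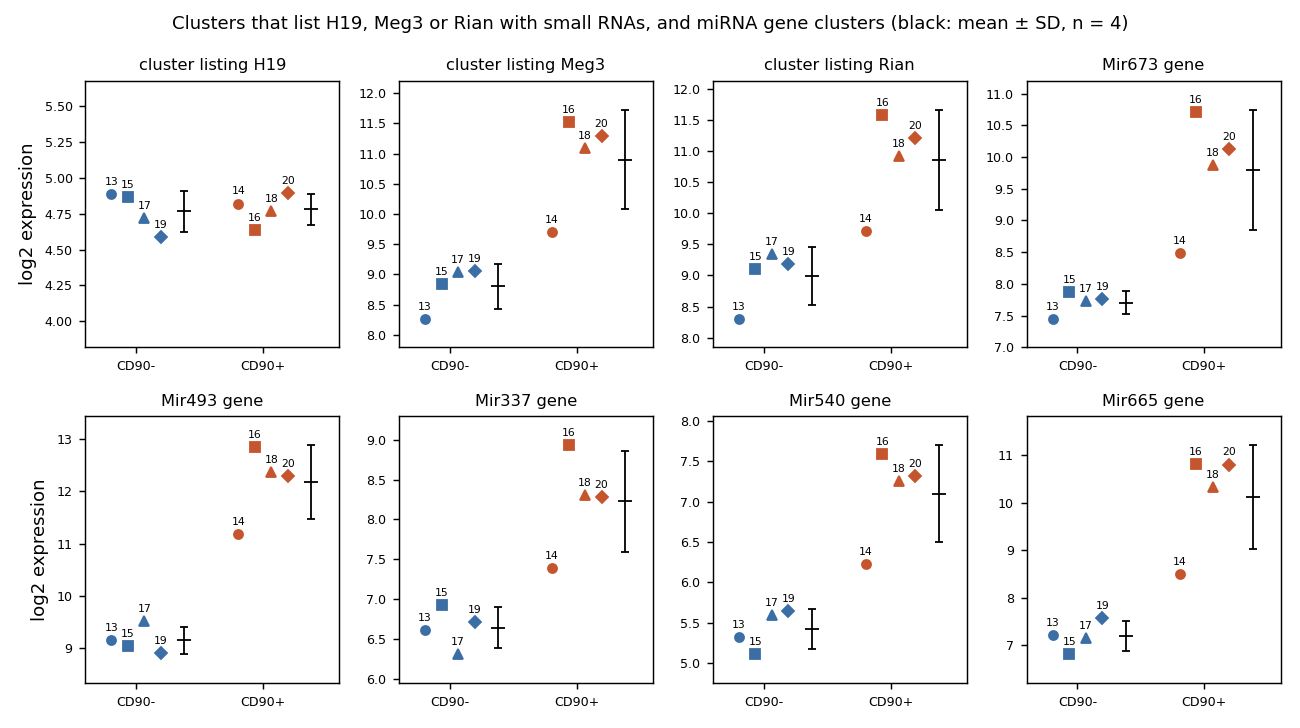
Log2 expression (y axis) of the 3 joint clusters and of 5 miRNA gene clusters in each CD90- (blue) and CD90+ (orange) sample, with sample numbers and mean ± SD (n = 4) in black. All but the cluster listing H19 were higher in every CD90+ sample, and sample 14 was the lowest CD90+ sample in each of those 7.

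Of 29 listed neighbours in the members' imprinted clusters, 23 were measured and 12 tested, of which 2 rose and 1 fell, with a median difference of -0.027. Over all tested genes 29.6% were called, so these 3 calls of 12 are near that share. Igf2, the fetal growth factor gene next to H19, was at 6.04 ± 0.080 and 5.96 ± 0.1, below the negative control rows (limma adjusted p = 0.512; named after its values were seen). Slc22a18, a transporter gene in the region of Cdkn1c, rose by 0.44 (limma adjusted p = 0.00151). Its CD90- values and those of samples 16 and 18 lay below the negative control rows. Tssc4 rose by 0.54 (limma adjusted p = 0.00497). Kcnq1ot1, the noncoding RNA whose expression from the paternal copy silences Cdkn1c there, fell from 9.17 ± 0.089 to 8.89 ± 0.093 (limma adjusted p = 0.0230). Without sample 15, 18 or 20, 0 neighbours were called lower. Nap1l4 was at a difference of -0.19 and Atp10a at 0.26, neither called (limma adjusted p = 0.0577 and 0.174).

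Imprinted genes of other clusters were described in the same way. Of 25 listed, 23 were measured and 16 tested, of which 9 rose and 2 fell, with a median difference of 0.44; over all tested genes 14.0% were called higher and 15.7% lower. Asb4, a subunit of a ubiquitin ligase, rose from 5.68 ± 0.29 to 7.6 ± 0.24, and Tfpi2, a protease inhibitor, from 5.37 ± 0.17 to 6.63 ± 0.21, with CD90- values below the negative control rows (limma adjusted p = 4.89e-05 and 0.000117). Tfpi2 was also below those rows in CD90+ samples 14 and 20. Asb4 and Tfpi2 lie in the cluster of Sgce, the epsilon-sarcoglycan gene, which rose from 10.64 ± 0.048 to 11.07 ± 0.042 (limma adjusted p = 0.000586). Genes of 1 cluster can rise together, so the 9 genes that rose do not stand for 9 separate loci. Qpct, which forms N-terminal pyroglutamate on peptides, rose by 1.28 (limma adjusted p = 0.000159). Nnat, a membrane proteolipid of developing brain, fell from 6.3 ± 0.086 to 5.57 ± 0.099 (limma adjusted p = 0.000133), with all 8 samples under the negative controls.

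A list of 15 genes for imprint maintenance also held genes with other roles, such as the Tet genes. All 15 were tested, 5 fell and 0 rose, with a median difference of -0.21. These 5 calls of 15 are near the 29.6% called over all tested genes, and nothing is read from the count. Zfp57 was at 9.76, 10.33, 9.98 and 10.29 in CD90- samples 13, 15, 17 and 19, and at 7.24, 7.37, 7.33 and 7.44 in CD90+ samples 14, 16, 18 and 20. The gap between the populations was far wider than the spread in either. The difference was -2.75 (limma adjusted p = 1.51e-06). Dnmt3a, a DNA methyltransferase, fell by 0.31, and Tet1 and Tet3, enzymes that oxidise methylated cytosine, fell by 0.6 and 0.4 (limma adjusted p = 0.00312, 0.00635 and 0.00255). Trim28, the corepressor that ZFP57 recruits, was at 9.94 ± 0.082 and 9.91 ± 0.14, and Zfp445, another zinc finger protein of imprint keeping, at 9.89 ± 0.16 and 9.68 ± 0.15 (limma adjusted p = 0.815 and 0.175).

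**Figure D4:**
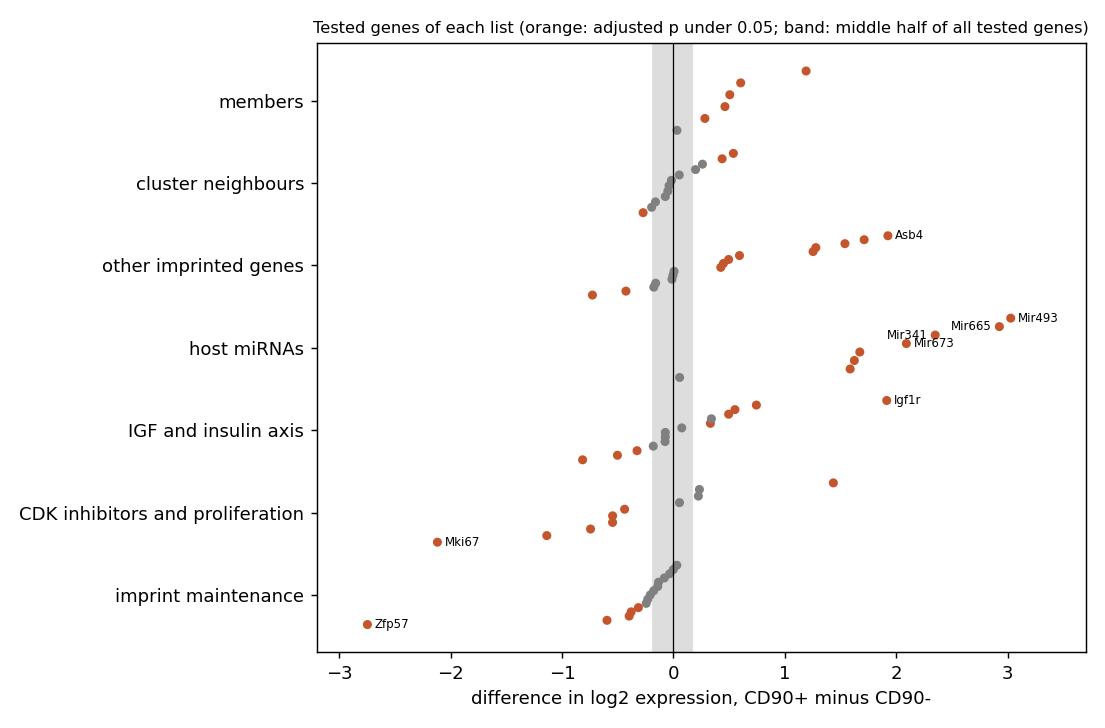
Difference in log2 expression (x axis, CD90+ minus CD90-) of every tested gene of 7 lists (y axis), orange where the adjusted p was under 0.05; the grey band runs between the quartiles of all tested genes, -0.18 and 0.17. The members lie above 0, Mir493 reaches 3.03, and Zfp57 lies at -2.75.

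Genes of the pathways on which Grb10 and Cdkn1c act were counted in the same way, beside 29.6% called over all tested genes. Of 15 listed genes of the IGF and insulin axis, 14 were tested, of which 5 rose and 3 fell. Igf1r, a receptor that GRB10 binds, rose from 9.49 ± 0.3 to 11.41 ± 0.056 (limma adjusted p = 1.68e-05). Grb14, a relative of Grb10, rose by 0.75 (limma adjusted p = 0.000489) and passed the filter only through its CD90+ values. Its value lay below the negative control rows on every array. Pik3ca, a catalytic subunit of PI3 kinase, fell by 0.81, Shc1, an adaptor, by 0.5 and Pik3r1, a regulatory subunit of PI3 kinase, by 0.33 (limma adjusted p = 0.000255, 0.000364 and 0.0445). Irs2, an adaptor of the insulin receptor, was at 14.54 ± 0.082 and 14.47 ± 0.19 (limma adjusted p = 0.641).

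Among CDK inhibitors and proliferation genes, 13 of 15 were measured and 10 tested, of which 1 rose and 6 fell, with a median difference of -0.49; over all tested genes 14.0% were called higher and 15.7% lower. The gene that rose was Cdkn1a, the p21 inhibitor and a relative of Cdkn1c, from 11.79 ± 0.51 to 13.22 ± 0.36 (limma adjusted p = 0.00385). Cdkn1b, the p27 inhibitor of the same family, fell from 9.15 ± 0.060 to 8.71 ± 0.094 (limma adjusted p = 0.00149). Mki67, a mark of cycling cells, fell from 8.72 ± 0.65 to 6.6 ± 0.57, and the kinase genes Cdk4 and Cdk2 fell by 0.55 and 0.74 (limma adjusted p = 0.00254, 8.55e-05 and 0.000802). Mki67 was lowest in sample 13 among CD90- samples, at 7.74, and in sample 14 among CD90+ samples, at 5.76. Cdkn1c was highest in the same samples. A link between these genes was not tested. It cannot be told apart from sex or whatever else sets samples 13 and 14 apart.

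Markers of other cells differed between the populations in some lists and not in others. For comparison, 14.0% of all tested genes were called higher and 15.7% lower. All 8 measured genes of the enteric glia list were called higher, of which Gfap passed the filter only through 1 population. The mean level of the list was 5.91 to 6.28 in CD90- and 7.54 to 8.71 in CD90+ samples. Kcna1, a potassium channel gene of that list, was at 5.57 ± 0.32 and 10.76 ± 1.04, and Sox10, which defines glia (named after its values were seen), at 5.64 ± 0.064 and 6.87 ± 0.29. For enteric neurons 9 of 10 genes were measured, and 6 of them, Elavl4, Tubb3, Snap25, Prph, Chat and Nos1, lay under the filter. The list's mean level was 4.94 to 5.0 in CD90- and 5.64 to 5.72 in CD90+ samples, with Stmn2 at 6.39 ± 0.26 and 11.08 ± 0.51. All 3 tested genes were called higher, with differences of 4.7 for Stmn2, 0.71 for Uchl1 and 0.82 for Ret. Ret, named after its values were seen, passed the filter only through 1 population. Leukocyte genes ran from 5.6 to 5.8 and from 5.88 to 6.4, with Ptprc, Itgam and Csf1r under the filter. Of 5 tested, 4 were called higher and 0 lower. Mesothelial genes ran from 5.47 to 5.96 and from 6.11 to 6.41, with Msln and Lrrn4 under the filter. Of 4 tested, 2 were called higher and 0 lower, and Upk3b (named after its values were seen) passed the filter only through 1 population. The mean level of 8 epithelial genes overlapped, at 7.53 to 9.67 and 7.99 to 9.66. That of 8 endothelial genes did too, at 5.92 to 6.45 and 5.95 to 6.59, though of 6 tested 1 was called higher and 2 lower. Tek rose by 1.84, while Lyve1 and Prox1 fell, at differences of -1.09 and -0.49 (limma adjusted p = 0.0109, 0.000285 and 0.00485). Prox1 was named after its values were seen. Smooth muscle genes split: 4 of 8 were called higher and 3 lower. Cnn1, Actg2, Des and Lmod1 rose by 1.77, 1.3, 0.96 and 0.92, while Acta2, Tagln and Smtn fell, at differences of -2.13, -2.31 and -1.17, all but Acta2 named after their values were seen. Genes of interstitial cells of Cajal, with 2 of 3 measured, ran from 8.28 to 10.97 in CD90- and from 6.59 to 7.69 in CD90+ samples. Of these 2, Ano1 fell from 10.26 ± 0.76 to 7.03 ± 0.53 (limma adjusted p = 0.000338). Kit overlapped between the populations and was not called, at 7.91 ± 1.8 and 6.96 ± 0.47 (limma adjusted p = 0.406), with 10.56 in sample 13. The part of these cells in the members' differences was not tested.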

How the data were processed

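Mouse colon fibroblasts sorted by CD90 were profiled on 8 arrays of 1 colour. Per the labels' protocols, 2 ng of RNA was amplified before hybridisation. The authors deposited log2 values, and the submitters' processing notes name Affymetrix Expression Console 1.1 and RMA, a method that corrects background, quantile-normalizes and summarises probes. The array's build was not used.

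Of the table's rows, 6732 were controls and 65956 transcript clusters. The platform's annotation, with symbols updated through RefSeq's mouse genes (GRCm38.p6), gave 1 gene to 31268 clusters, several to 1482 and no gene to 33206. A gene's cluster with the highest mean was kept if it reached 5.36, the median of all cluster values, in at least 4 samples. The 17255 genes left were fitted with limma 3.58.1 (R 4.3.3). Tests were two-sided, p-values were Benjamini-Hochberg adjusted over all of these genes, and the threshold was 0.05. Exact permutation tests, two-sided, were run on each of the 7 measured members. The fit was tested on simulated data. Precision is limited by the number of arrays.

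The members and lists were chosen with earlier results of these data known. Genes named are all members and, per list, up to 4 with the smallest p and the 2 with the highest mean (cell type lists: the latter, of which some are given), the 2 most like each member, and sort and sex-linked genes. Alternatives changed the filter, normalization, variance model, array weights, cluster choice, block and samples. Motifs were searched in 250 bases before each start. Figures used matplotlib 3.10.9.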

Additional observations from a re-analysis of the deposited data

Results flagged for a closer look

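In the CD90- population, Cdkn1c was at 7.34 in sample 13, apart from the other 3 samples, which lay between 7.08 and 7.09. The gap to the nearest sample was 0.929 of the population's range, above Dixon's critical value for 4 samples. Chance takes a gap past that critical value in about 1 of 20 groups.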

How the results depend on the processing

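Mest, Ndn and Grb10 were called higher under every alternative in which they were tested, with differences of 0.99 to 1.44, 0.54 to 0.67 and 0.42 to 0.51; the stricter filter left Mest and Cdkn1c untested. The number of members called higher fell from 5 to 3 without a filter, with the stricter filter and with arrays centred on their medians, and ran from 3 to 5 when single samples were left out; 0 were called lower in each of these. Without a filter Plagl1 and Cdkn1c had limma adjusted p of 0.0682 and 0.0628, with median centring 0.0762 and 0.105, and a second quantile normalization gave Cdkn1c 0.0654. Taken alone, Cdkn1c differed by 0.27 after that normalization (exact permutation p = 0.0571) and by 0.24 after median centring (exact permutation p = 0.114). Peg3, not called in any setting, changed sign, to -0.010 with median centring (limma adjusted p = 0.978), and was -0.033, -0.064 and -0.050 without samples 14, 15 and 19, in a range of -0.064 to 0.22 when single samples were left out. Taking samples 13 and 14, or adjacent sample numbers, as a block kept 5 calls. The limma adjusted p of Plagl1 and Cdkn1c were 0.00464 and 0.00312 with the former block and 0.0101 and 0.0109 with the latter. No label ties samples of the populations, so pairing by adjacent numbers is an assumption. Alternatives for the lists were chosen after seeing the data. Median centring gave 2 neighbours called lower. With single samples left out, counts ran from 1 to 3 for other imprinted genes called lower, 0 to 2 for neighbours called lower, 3 to 5 for IGF and insulin genes called higher and 1 to 2 for CDK and proliferation genes called higher. The cause was not tested. Genes called over the whole table ran from 3790 to 7026. Signal near or under the negative control rows limits Dlk1, Igf2, Mest and the cluster listing H19. It also limits other named genes, among them Asb4, Tfpi2, Nnat, Slc22a18, Grb14, Mir540, Mir337 and Mir136.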
